A study of Homo sapiens with 36 samples.

Results

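HN6 and HN4 are established human lines of head and neck squamous cell carcinoma, and their untreated cultures were compared across the autosomal genes. The comparison used the 3 libraries of untreated HN6 and the 3 of untreated HN4, chosen by their labels out of 36 libraries in 12 groups, and the 55746 autosomal genes of the 58735 in the count table. The other groups, used here to see whether a difference recurred, were HN6 and HN4 given 100 ng per ml recombinant human IL-8 for 24 h, HN6 transfected with vector or ACLY plasmids, and HN4 transfected with plasmids labelled vector or ACLY. The third line, Cal27, is given in places for its untreated level. All cells grew in medium whose fetal bovine serum had been depleted of exosomes. The study's design set out to learn how IL-8 acts on lines that differ in its receptor CXCR1 and what lies downstream of ACLY, so the untreated lines are its starting point. A single line of each kind was compared, and the labels number the replicates without saying whether they were separate cultures, so each p-value below tells of library-to-library spread alone, part or all of which could be technical.

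Head and neck squamous carcinoma arises from the stratified lining of the mouth and throat. Cells of that lining carry paired type I and type II keratins, desmosomes and hemidesmosomes, and a lineage factor, TP63, and they cornify as they mature. The tumours are known for gain of the chromosome 11q13 segment with CCND1 and CTTN, for gain of EGFR, for loss of the CDKN2A locus and for mutation of FAT1 and NOTCH1. CXCL8 encodes interleukin-8, which acts through CXCR1 and CXCR2, and ACLY makes cytosolic acetyl-CoA from citrate for lipid synthesis and acetylation.

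The 6 libraries held 16855576 to 19197976 counts, so that a count of 0 in a library allows up to 0.156 to 0.178 counts scaled to library depth (CPM, counts per 1000000), by counting error alone. Levels are CPM with TMM scaling, which corrects depth for composition, as mean ± SD with n = 3, and differences are log2 of HN6 over HN4. Mitochondrial genes took 4.17% to 4.56% of counts in HN6 and 5.39% to 6.24% in HN4. Of 20 squamous epithelial markers 19 reached 1 CPM in each line, with a summed level of 7968 to 8172 CPM in HN6 and 5776 to 5857 CPM in HN4. The exception in both was KRT14, the basal keratin partner of KRT5, with 36 reads in HN6 and 0 in HN4; its near-identical copies make that count uncertain. TP63 had 108 ± 1.53 CPM in HN6 and 198 ± 6.28 CPM in HN4. Of 12 fibroblast markers 5 reached 1 CPM in HN6 and 3 in HN4, summing to 26.5 to 29.3 CPM in HN6 and 39.6 to 43.7 CPM in HN4, with COL1A2, PDGFRA and DPT at 0 in both lines. One of them, FAP, a membrane protease of activated fibroblasts, was at 0.34 ± 0.159 CPM in HN6 and 31.1 ± 1.17 CPM in HN4, most of the HN4 sum. Others went the other way. COL1A1 was at 13.3 ± 0.887 CPM in HN6 and 7.02 ± 1.18 CPM in HN4. TWIST2, PDPN and LUM had 376, 190 and 84 reads in HN6, against 1, 3 and 1 in HN4. PDGFRB was at 2.13 ± 0.554 CPM in HN6 and 2.78 ± 0.42 CPM in HN4, and the rest were too low to be tested. Of 12 leukocyte markers 2 reached 1 CPM in each line, summing to 15.1 to 17.4 CPM in HN6 and 19.5 to 20.7 CPM in HN4, with MS4A1 and TYROBP at 0 in both. Endothelial markers reached 1 CPM in 1 of 8 in each line and melanocyte and neural markers in 1 of 9. In bulk RNA, fewer cells of a kind and less RNA per cell cannot be told apart.

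The lines differed in most of what they expressed. Of 15730 autosomal genes tested, 12388 passed the threshold of an adjusted p under 0.05 (78.8%), 5994 of them higher in HN6 (38.1%) and 6394 lower (40.6%). With a difference of at least 2-fold as well, 5371 genes passed (34.1%), 2243 higher in HN6 (14.3%) and 3128 lower (19.9%). With genes under a mean of 5 CPM left out, 1162 were higher and 1592 lower by at least 2-fold. The median difference of all genes tested was -0.03 on the log2 scale. These shares are the background for every count that follows. A call by itself is common here, so size and level carry more than the adjusted p. That p came from edgeR's quasi-likelihood test with Benjamini-Hochberg adjustment over 16305 genes. Some genes below are said to have no overlap between the libraries of the lines. The share of all tested genes without overlap is not given here, so lack of overlap does not mark a gene out.

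**Figure D1:**
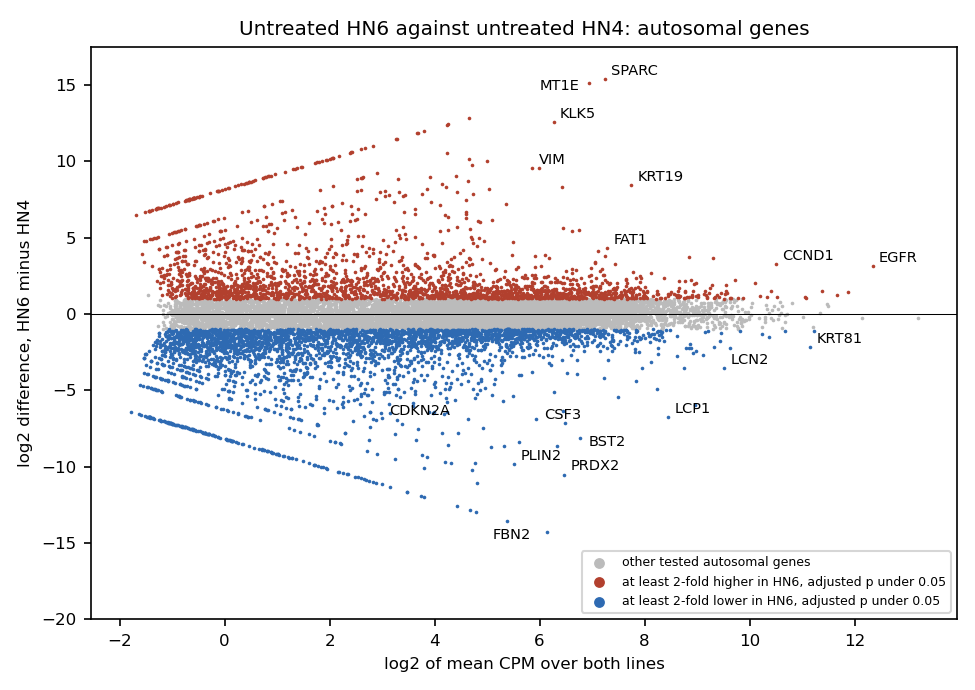
Each point is a tested autosomal gene, with the log2 of its mean CPM over both lines on the horizontal axis and its log2 difference, HN6 minus HN4, on the vertical axis. The 2243 genes at least 2-fold higher in HN6 are red and the 3128 at least 2-fold lower are blue; EGFR and CCND1 stand out for a large difference at a high level, and the slanting rows at the edges are genes with hardly any read in one line.

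Some of the largest differences were of genes that one line read strongly and the other hardly at all. SPARC, a secreted matrix glycoprotein of mesenchymal cells (ENSG00000113140, chromosome 5, 151661096 to 151687165), had 307, 299.8 and 302 CPM in the 3 HN6 libraries, against 0 reads in all 3 HN4 libraries. With the 3 counts that 0 reads allow over the HN4 libraries together, SPARC was at least 5244-fold higher in HN6. The metallothionein MT1E had 256, 216 and 267 CPM in HN6, against 0 reads in HN4, at least 4262-fold higher, although its near-identical copies make the assignment of reads uncertain. G6PC3, the widely expressed subunit of glucose-6-phosphatase, had 52.8, 46.8 and 52 CPM in HN6, against 0 reads in HN4, at least 875-fold higher. The kallikrein KLK5, a serine protease of shedding skin, had 162, 143 and 159 CPM in HN6, against 0, 0 and 0.0573 CPM in HN4. That is 1 HN4 read in all, a ratio of 8023 with a 95% counting interval of 1439.5 to 316924.

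In the other direction, FBN2, a microfibril protein of the matrix (ENSG00000138829, chromosome 5, 128257909 to 128659185), had 0 reads in HN6, against 139, 140.4 and 142 CPM in HN4, at least 2657-fold lower in HN6. GTSF1, which acts in piRNA silencing in germ cells, had 0 reads in HN6, against 79.8, 86.3 and 83.5 CPM in HN4. NRN1, a neurite outgrowth factor held on the membrane, also had 0 reads in HN6, against 56, 55.8 and 54.4 CPM in HN4, and GLB1L2 had 0 reads in HN6, against 51.9, 47.9 and 52.8 CPM in HN4. PRDX2, a cytosolic peroxidase that clears hydrogen peroxide, had 0.166, 0.112 and 0.0579 CPM in HN6, against 167, 185 and 178 CPM in HN4. PLIN2, the coat protein of lipid droplets, had 0.111, 0.168 and 0 CPM in HN6, against 89.7, 93.8 and 91 CPM in HN4. The HN6 levels of both lay around or under the limit of detection while every HN4 library was far above it. The chemokine CXCL5 had 3 reads in HN6 and 3011 in HN4, a ratio of 1029 in favour of HN4 with an interval of 352 to 4990.5.

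By a fixed definition, at least 5 CPM in every library of one line and at most 3 reads in every library of the other, 58 autosomal protein-coding genes were restricted to HN6 and 55 to HN4. The counts followed the limits: with 2 CPM as the lower bound they were 90 and 103, and with 10 CPM 37 and 33. Of the HN6 set 23 had no HN4 read, and of the HN4 set 24 had no HN6 read. Ranked by counts per kb, the HN6 set was led by MT1E, KLK5, SPARC, the activin subunit INHBB and CDCA2, a chromatin regulator of mitosis. The HN4 set was led by PRDX2, GTSF1, the trypsinogen PRSS3 (uncertain for its near-identical copies), NRN1 and CXCL5. In untreated Cal27, 29 of the 58 HN6 genes and 17 of the 55 HN4 genes were at 5 CPM or more, while 18 of each set were under 0.2 CPM. PRDX2 was at 90 CPM in Cal27 and SPARC at 224 CPM, so HN6 was the low line for PRDX2 and HN4 the low line for SPARC among the 3, whereas FBN2 was at 5.65 CPM and PLIN2 at 0.346 CPM in Cal27.

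The starts of 4 of these genes are shown because each gene is read in one line and nearly silent in the other, and because they differ in CpG content. The sequences are RefSeq promoters of GRCh38.p14, from 250 bases before the start to 50 after it, 5′ to 3′ on the gene's strand, with every CG pair in capitals. PRDX2 lies on the minus strand at chr19:12801751-12802050 and PLIN2 on the minus strand at chr9:19127443-19127742; both were restricted to HN4. G6PC3 lies on the plus strand at chr17:44070423-44070722 and SPARC on the minus strand at chr5:151686866-151687165; both were restricted to HN6.
PRDX2: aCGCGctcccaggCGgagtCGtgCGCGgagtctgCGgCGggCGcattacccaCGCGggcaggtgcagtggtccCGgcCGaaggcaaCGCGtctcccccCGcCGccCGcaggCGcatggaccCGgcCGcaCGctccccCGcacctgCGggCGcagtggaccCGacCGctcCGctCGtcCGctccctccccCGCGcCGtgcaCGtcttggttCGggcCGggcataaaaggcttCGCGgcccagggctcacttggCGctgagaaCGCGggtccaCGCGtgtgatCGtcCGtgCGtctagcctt
PLIN2: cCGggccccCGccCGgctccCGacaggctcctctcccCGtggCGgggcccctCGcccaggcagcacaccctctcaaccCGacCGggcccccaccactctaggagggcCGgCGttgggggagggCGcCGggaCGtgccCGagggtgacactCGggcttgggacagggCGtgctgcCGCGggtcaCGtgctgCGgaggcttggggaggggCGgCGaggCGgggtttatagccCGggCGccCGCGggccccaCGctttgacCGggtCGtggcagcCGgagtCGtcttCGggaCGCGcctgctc
G6PC3: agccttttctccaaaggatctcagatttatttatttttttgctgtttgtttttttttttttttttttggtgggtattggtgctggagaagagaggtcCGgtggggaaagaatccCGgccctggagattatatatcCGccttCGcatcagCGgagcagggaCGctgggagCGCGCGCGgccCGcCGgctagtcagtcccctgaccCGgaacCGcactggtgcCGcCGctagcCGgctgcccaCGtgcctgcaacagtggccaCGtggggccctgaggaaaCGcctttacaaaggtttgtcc
SPARC: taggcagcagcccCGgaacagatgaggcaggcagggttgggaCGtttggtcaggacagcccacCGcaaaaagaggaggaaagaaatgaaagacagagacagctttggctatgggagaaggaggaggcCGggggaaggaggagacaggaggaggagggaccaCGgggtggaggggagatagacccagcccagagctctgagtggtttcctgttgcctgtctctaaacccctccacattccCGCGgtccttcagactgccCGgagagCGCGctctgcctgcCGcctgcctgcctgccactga

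The PRDX2 start held 46 CG pairs, a ratio of observed to expected CpG of 1.14, and the PLIN2 start held 36, a ratio of 0.818. The G6PC3 start held 20, a ratio of 0.864, and the SPARC start held 11, a ratio of 0.401. A promoter was found for 9963 of the 12636 symbols of autosomal protein-coding genes tested, and 81.9% of these had a ratio over 0.6. The share was 70% of the 40 matched genes restricted to HN6 and 67.6% of the 37 restricted to HN4. A lower share than among all was not particular to these sets. It was 75.9% of the 1335 matched genes at least 2-fold higher in HN6 and 71% of the 1586 at least 2-fold lower. On either strand, the letters TATAAA were in 5.0% of the HN6 set and 8.11% of the HN4 set, against 5.64% of all, and PLIN2 is one that holds them. TGANTCA was in 2.5% of the HN6 set and 8.11% of the HN4 set, against 4.69% of all. GGGCGG was in 62.5% of the HN6 set and 62.2% of the HN4 set, against 70.2% of all. These are descriptions of the windows, without a test.

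Both lines carried epithelial keratins, and more of those tested were higher in HN6 than lower. Of 30 keratin genes listed 16 were tested, and 9 were at least 2-fold higher in HN6 and 4 at least 2-fold lower, with a median difference of 1.07. KRT19, a keratin of simple and immature stratified epithelium (ENSG00000171345, chromosome 17, 41523617 to 41528308), had 460.0, 410.3 and 411 CPM in HN6, against 1.35, 1.16 and 1.09 CPM in HN4, 352-fold higher (log2 8.46, SE 0.0955, adjusted p = 2.79e-30). KRT7, of simple epithelium, averaged 1176 ± 92 CPM in HN6 and 90.9 ± 10.4 CPM in HN4. The basal keratin KRT5 averaged 714 ± 44.2 CPM in HN6 and 161 ± 8.11 CPM in HN4, and KRT17, of stressed and basal cells, 60.5 ± 6.24 CPM in HN6 and 5.97 ± 0.523 CPM in HN4. No HN6 library overlapped an HN4 library for any of these 4. Lower in HN6 were the hair keratin KRT81, with 827 ± 136 CPM in HN6 and 3721 ± 187 CPM in HN4, and KRT6B, with 0.28 ± 0.144 CPM in HN6 and 11.9 ± 1.24 CPM in HN4. KRT81 shares long stretches with KRT86, and KRT6B with KRT6A, so the split between copies is uncertain. The desmosomal cadherins that bind such cells together were higher as well, DSG3 at 93.5 ± 4.97 CPM in HN6 and 21.9 ± 0.883 CPM in HN4, and DSC3 at 67.7 ± 2.82 CPM in HN6 and 18.5 ± 1.55 CPM in HN4. Of 23 cadherin and desmosome genes tested, 3 were at least 2-fold higher and 2 at least 2-fold lower.

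Genes of cornification were split rather than moved one way. Of 22 tested, 8 were at least 2-fold higher in HN6 and 8 at least 2-fold lower, with a median of 0.32. Besides KLK5, the kallikrein KLK6 averaged 57.6 ± 1.03 CPM in HN6 and 0.885 ± 0.433 CPM in HN4, and MAL, a membrane raft protein of maturing squamous cells, 18.7 ± 1.99 CPM in HN6 and 0.111 ± 0.0609 CPM in HN4. DMKN, a secreted protein of the upper epidermis, averaged 30.9 ± 2.59 CPM in HN6 and 129 ± 5.07 CPM in HN4. Among lineage transcription factors 6 of 26 tested were at least 2-fold higher and 3 at least 2-fold lower. FOXE1, a forkhead factor of thyroid and foregut, had 40, 38.1 and 34.6 CPM in HN6 and 1 read in all HN4 libraries, a ratio of 1954 with an interval of 350.4 to 77236. TFAP2A, a factor of surface ectoderm, was 3.14-fold higher in HN6, and PRDM1, a repressor that acts in terminal maturation, fell by 2.69 on the log2 scale.

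HN6 also read VIM, SPARC and other genes of mesenchymal cells that HN4 hardly read. VIM, the filament protein vimentin (ENSG00000026025, chromosome 10, 17228259 to 17237593), had 114, 114 and 121 CPM in HN6, against 0.10, 0.222 and 0.115 CPM in HN4, which was 8 HN4 reads in all. CDH2, N-cadherin, averaged 83.6 ± 3.48 CPM in HN6 and 5.67 ± 0.308 CPM in HN4, while CDH1, E-cadherin, averaged 445 ± 12.9 CPM in HN6 and 253 ± 7.92 CPM in HN4, so both cadherins were higher in HN6. TWIST2, a repressor linked to loss of epithelial character, averaged 7.06 ± 1.0 CPM in HN6 and had 1 read in HN4. Of 26 mesenchymal state genes tested, 11 were at least 2-fold higher and 6 at least 2-fold lower, with a median of 0.89. Some members were the higher in HN4. The proteoglycan VCAN averaged 0.0386 ± 0.0668 CPM in HN6 and 29.1 ± 1.03 CPM in HN4, and the collagen crosslinking enzyme LOX fell by 2.48 on the log2 scale.

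The HOX genes, which record the position of a cell along the body axis, were lower in HN6 for most of those read. Of 32 tested, 21 were at least 2-fold lower in HN6 and 4 at least 2-fold higher, with a median of -1.56, the lowest median of the 27 lists. HOXC10 had 0.166, 0.168 and 0.0579 CPM in HN6, against 19.4, 20.4 and 22.1 CPM in HN4. HOXA9 averaged 1.97 ± 0.261 CPM in HN6 and 33.1 ± 1.74 CPM in HN4, HOXA10 averaged 8.47 ± 0.239 CPM in HN6 and 39.8 ± 2.33 CPM in HN4, and HOXB9 averaged 2.83 ± 0.558 CPM in HN6 and 21.6 ± 0.619 CPM in HN4. The exceptions were of the D cluster: HOXD8, HOXD9, HOXD10 and HOXD13 were the 4 at least 2-fold higher in HN6. HOXD13, which patterns the limb ends and the genital region, averaged 2.18 ± 0.243 CPM in HN6 and 0.0704 ± 0.0612 CPM in HN4.

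**Figure D2:**
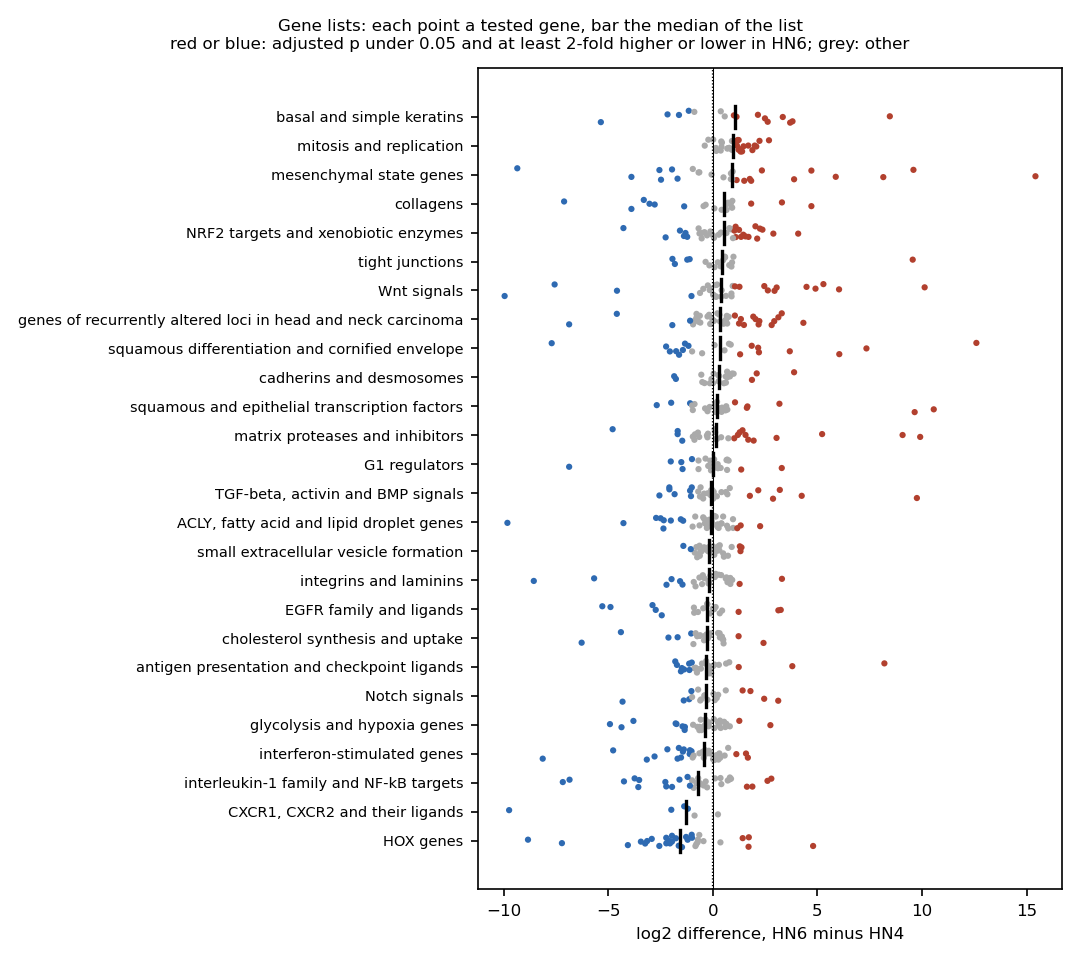
Each point is a tested gene of a list, by its log2 difference, HN6 minus HN4, and the black bar is the median of the list; the dotted line is the median of all autosomal genes tested. HOX genes, with 21 of 32 at least 2-fold lower, form the bottom row, and keratins and mitosis genes, with medians of 1.07 and 0.98, the top rows.

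The surface and matrix of the lines differed in particular chains. Of 28 integrin and laminin genes tested 2 were at least 2-fold higher in HN6 and 6 at least 2-fold lower, and of 20 collagens 3 were higher and 6 lower by as much. COL17A1, the hemidesmosome collagen (ENSG00000065618, chromosome 10, 104031286 to 104085957), had 322, 310.4 and 306 CPM in HN6, against 33.6, 28.9 and 32.7 CPM in HN4. COL6A2, a beaded filament collagen, averaged 86.5 ± 9.76 CPM in HN6 and 3.31 ± 0.331 CPM in HN4. COL8A1, a short chain network collagen, went the other way, with 0.941, 1.9 and 0.984 CPM in HN6, against 185, 174 and 175 CPM in HN4. ITGB2, an integrin beta chain best known from leukocytes, averaged 1.5 ± 0.0488 CPM in HN6 and 77.4 ± 0.689 CPM in HN4, beside leukocyte markers whose sums were given above. ITGA2, of the collagen receptor, averaged 157 ± 10.3 CPM in HN6 and 729 ± 5.8 CPM in HN4, and the laminin chain LAMA4 had 5 reads in HN6 and 2114 in HN4.

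Of 29 matrix proteases and inhibitors, 11 were at least 2-fold higher in HN6 and 4 at least 2-fold lower. MMP7, matrilysin, averaged 42.4 ± 1.38 CPM in HN6 and had 4 reads in HN4, and ADAMTS1, which cleaves proteoglycans, averaged 6.63 ± 0.971 CPM in HN6 and had 0 reads in HN4. ST14, matriptase, was lower, at 105 ± 0.715 CPM in HN6 and 338 ± 8.29 CPM in HN4. Of 18 tight junction genes 1 was at least 2-fold higher and 4 at least 2-fold lower. The higher one was CLDN11, a claudin of myelin and Sertoli cells, with 122, 125 and 134 CPM in HN6, against 0.10, 0.166 and 0.229 CPM in HN4. The common epithelial members CLDN1 and TJP1 were 1.89-fold and 1.98-fold higher in HN6.

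The receptor EGFR was higher in HN6 while several of its ligands were lower. EGFR, the receptor of epidermal growth factor (ENSG00000146648, chromosome 7, 55019021 to 55211628), had 9220.1, 9738 and 9074 CPM in HN6, against 1078, 1069 and 1057 CPM in HN4, 8.75-fold higher (log2 3.13, SE 0.0469, adjusted p = 6.05e-28). EREG had 16.3, 21.3 and 21.2 CPM in HN6, against 587, 599.6 and 568 CPM in HN4. HBEGF had 45.9, 43.7 and 42.7 CPM in HN6, against 241, 246 and 234 CPM in HN4, and BTC averaged 0.473 ± 0.195 CPM in HN6 and 18.6 ± 0.946 CPM in HN4. The groups did not overlap for any of the 3. AREG did not pass the test, at 48.3 ± 4.75 CPM in HN6 and 46.3 ± 0.258 CPM in HN4 (adjusted p = 0.449), and TGFA averaged 125 ± 4.86 CPM in HN6 and 136 ± 2.05 CPM in HN4. NRG1, the ligand of ERBB3 and ERBB4, was higher instead, at 35.7 ± 1.28 CPM in HN6 and 3.76 ± 0.264 CPM in HN4. Of the 20 family members, ligands and feedback inhibitors tested, 3 were at least 2-fold higher in HN6 and 5 at least 2-fold lower.

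The IL-8 receptors were hardly read in either line. CXCR1 had 0 reads in HN6 and 1 in HN4, and CXCR2 had 2 reads in HN6 and 11 in HN4, so neither was tested and no difference was detectable at this depth. The ligands that bind them were lower in HN6 for 4 of the 6 list members tested by at least 2-fold, and higher for none, with a median of -1.29. Between HN6 vector and HN4 labelled vector 2 of 6 were lower and 0 higher by as much, with a median of -0.09. At any size 3 were called lower there and 1 higher. In each of the other 2 pairs 4 of 6 were at least 2-fold lower. CXCL8 (ENSG00000169429, chromosome 4, 73740506 to 73743716) had 164, 193 and 191 CPM in HN6, against 425, 426 and 405 CPM in HN4, 2.3-fold lower in HN6 (log2 -1.20, SE 0.0558, adjusted p = 9.22e-17). Its difference was -1.34 between HN6 vector and HN4 labelled ACLY and -1.42 between the lines given IL-8, but 0.42 between HN6 vector and HN4 labelled vector. CXCL1 had 192, 183 and 184 CPM in HN6, against 705, 789 and 729.6 CPM in HN4, and CXCL2 averaged 21.6 ± 0.648 CPM in HN6 and 55.9 ± 3.63 CPM in HN4. ACLY, the other gene of the study, had 278, 274 and 271 CPM in HN6, against 368, 373 and 363 CPM in HN4, 1.34-fold lower in HN6 (adjusted p = 4.21e-09). The difference in ACLY was -0.42 on the log2 scale between the untreated lines, -0.37 between HN6 vector and HN4 labelled ACLY, -2.48 between HN6 vector and HN4 labelled vector, and -2.59 between the lines given IL-8.

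Interleukin-1 and NF-kB target genes were lower in HN6 for 12 of 33 tested by at least 2-fold and higher for 4, with a median of -0.70. CSF3, the granulocyte growth factor G-CSF (ENSG00000108342, chromosome 17, 40015361 to 40017813), had 1.22, 1.01 and 0.868 CPM in HN6, against 117, 125 and 119 CPM in HN4. LCN2, an iron-scavenging lipocalin, had 115, 113 and 114 CPM in HN6, against 1291, 1368 and 1380.0 CPM in HN4, and the alarmin IL1A had 36.5, 43.6 and 38.5 CPM in HN6, against 451, 466 and 450.0 CPM in HN4. Every HN4 library was above every HN6 library in each. IL1B averaged 60.3 ± 1.05 CPM in HN6 and 283 ± 11.2 CPM in HN4, CCL20 averaged 3.56 ± 0.70 CPM in HN6 and 67.8 ± 1.41 CPM in HN4, and PTGS2, the inducible prostaglandin synthase, averaged 2.79 ± 0.856 CPM in HN6 and 37.5 ± 2.09 CPM in HN4. The receptor went the other way: IL1R1 averaged 33.5 ± 1.19 CPM in HN6 and 5.47 ± 0.663 CPM in HN4.

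Other secreted signals differed gene by gene. Of 29 genes of TGF-beta, activin and BMP signalling 6 were at least 2-fold higher in HN6 and 7 at least 2-fold lower. The activin subunits went opposite ways: INHBB had 54.3, 52.4 and 51.1 CPM in HN6, against 0.0502, 0 and 0.115 CPM in HN4, while INHBA had 133, 152 and 138 CPM in HN6, against 838, 818 and 838 CPM in HN4. The activin-binding inhibitor FST was 7.33-fold higher in HN6. Of 32 Wnt genes 11 were at least 2-fold higher and 4 at least 2-fold lower. WNT5A, a ligand of noncanonical signalling, had 0 reads in HN6 and averaged 6.84 ± 1.05 CPM in HN4, and WNT9A averaged 2.8 ± 0.344 CPM in HN6 and 67.5 ± 3.24 CPM in HN4. The secreted Wnt inhibitor SFRP1 averaged 7.69 ± 0.849 CPM in HN6 and had 0 reads in HN4, and the receptor FZD7 averaged 22.8 ± 0.888 CPM in HN6 and 2.75 ± 0.395 CPM in HN4. Of 20 Notch genes 4 were at least 2-fold higher and 4 at least 2-fold lower: the receptor NOTCH2 averaged 185 ± 3.37 CPM in HN6 and 69.1 ± 2.28 CPM in HN4, and the receptor NOTCH3 averaged 19.1 ± 1.38 CPM in HN6 and 42 ± 3.52 CPM in HN4. NOTCH3 differed by -1.13 between the untreated lines and by 0.29 between the lines given IL-8.

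Interferon-stimulated genes were lower in HN6 for 13 of 37 tested by at least 2-fold and higher for 3, with a median of -0.43. BST2, tetherin, which holds budding virus at the membrane (ENSG00000130303, chromosome 19, 17402939 to 17405648), had 1.11, 0.782 and 0.405 CPM in HN6, against 226, 213 and 217 CPM in HN4, 282-fold lower in HN6. ISG15, a ubiquitin-like modifier, averaged 16.9 ± 1.61 CPM in HN6 and 117 ± 6.3 CPM in HN4, and IFIH1, a sensor of double-stranded RNA, 15.3 ± 1.38 CPM in HN6 and 49.4 ± 1.55 CPM in HN4. Of 29 genes of antigen presentation and checkpoint ligands, 3 were at least 2-fold higher and 8 at least 2-fold lower. The class I heavy chain HLA-B averaged 308 ± 9.42 CPM in HN6 and 1071 ± 24.8 CPM in HN4, B2M, its light chain, 694 ± 19.1 CPM in HN6 and 1942 ± 61.1 CPM in HN4, and the checkpoint ligand CD274 17.7 ± 0.564 CPM in HN6 and 51 ± 3.45 CPM in HN4. HLA genes share sequence among themselves, which makes their split uncertain. CD74, the invariant chain of class II, went the other way, with 67.5, 65.3 and 64 CPM in HN6, against 0.301, 0 and 0.344 CPM in HN4; HLA-DRA was too low to be tested in either line.

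**Figure D3:**
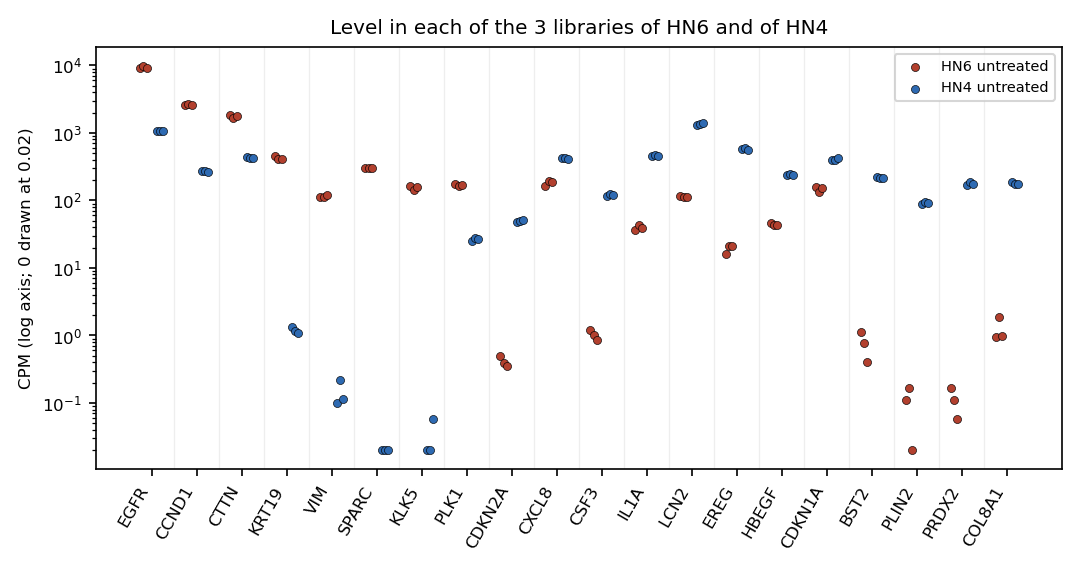
The CPM of 20 genes in each of the 3 untreated HN6 libraries, in red, and the 3 untreated HN4 libraries, in blue, on a log axis with 0 drawn at 0.02. For every gene shown the 3 libraries of one line lie together and apart from those of the other, from EGFR, at 9074 CPM or more in HN6, to SPARC, at 0 in HN4.

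Some genes of the recurrently altered loci differed strongly. Of the 40 tested, 42.5% differed by at least 2-fold, against 34.1% of all genes, and the median of the list was 0.32. CCND1, LTO1, FADD, PPFIA1, CTTN and SHANK2, all of 11q13, were among the 13 at least 2-fold higher in HN6. CCND1, cyclin D1 (ENSG00000110092, chromosome 11, 69641087 to 69654474), had 2589, 2684 and 2615 CPM in HN6, against 269, 271 and 266 CPM in HN4, 9.79-fold higher (log2 3.29, SE 0.0476, adjusted p = 3.76e-28). Its 11q13 neighbours on the list, LTO1, FADD, PPFIA1, CTTN and SHANK2, were each 3.81-fold to 7.0-fold higher in HN6, and ANO1, which lies between LTO1 and FADD, was 1.43-fold higher. CTTN, cortactin, which binds branched actin, had 1834, 1686 and 1775 CPM in HN6, against 439, 419 and 430.2 CPM in HN4. The tested genes just outside, looked up after these values were seen, differed by less or the other way. On the centromeric side MYEOV and TPCN2 differed by -0.77 and -1.15, and PPP6R3, farther out, by 0.64. On the other side DHCR7, next to SHANK2, differed by 1.23, and NADSYN1 beyond DHCR7 by 0.50. Of 17 tested genes around and including CCND1, 7 were at least 2-fold higher in HN6 and 3 at least 2-fold lower. On chromosome 7, SEC61G, next to EGFR, averaged 781 ± 11.6 CPM in HN6 and 202 ± 11.5 CPM in HN4, while LANCL2 and VOPP1 on the other side of EGFR differed by 0.53 and -0.63. Of 13 tested genes around and including EGFR, 2 were at least 2-fold higher in HN6 and 5 at least 2-fold lower. On chromosome 9, CDKN2A, which encodes the inhibitors p16 and ARF (ENSG00000147889, chromosome 9, 21967753 to 21995301), had 0.498, 0.391 and 0.347 CPM in HN6, against 48.3, 48.9 and 50.6 CPM in HN4, 117-fold lower in HN6. Of 13 tested genes from MLLT3 to IFT74, CDKN2A included, 4 were at least 2-fold lower in HN6 and 1 at least 2-fold higher. Next to it MTAP averaged 15.5 ± 1.25 CPM in HN6 and 59.5 ± 2.01 CPM in HN4, and CDKN2B 14.8 ± 0.297 CPM in HN6 and 23.9 ± 0.619 CPM in HN4. CDKN2B differed by -0.69 between the untreated lines and by -0.91 between HN6 vector and HN4 labelled ACLY, but by 0.74 between HN6 vector and HN4 labelled vector and by 0.86 between the lines given IL-8. Farther out, IFNE, an interferon of epithelium, had 4 reads in HN6 and 293 in HN4, and TUSC1 had 10 reads in HN6 and 971 in HN4, differences of -6.01 and -6.49, near that of CDKN2A at -6.87. ELAVL2, between CDKN2B and TUSC1, went the other way, at 14.6 ± 0.643 CPM in HN6 and 1.5 ± 0.222 CPM in HN4. DNA copy number was not measured. Of 40 genes of such loci tested, 13 were at least 2-fold higher in HN6 and 4 at least 2-fold lower; FAT1, a giant cadherin, had 289.7, 322 and 280.2 CPM in HN6, against 13.2, 16.5 and 14.9 CPM in HN4, the acetyltransferase EP300 averaged 173 ± 8.0 CPM in HN6 and 22.7 ± 2.1 CPM in HN4, and the receptor FGFR1 averaged 0.749 ± 0.265 CPM in HN6 and 18.3 ± 1.29 CPM in HN4.

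The cell cycle genes of S phase and mitosis were higher in untreated HN6. Of 30 tested, 27 were called higher and 2 lower, 15 were at least 2-fold higher and 0 at least 2-fold lower, with a median of 0.98. PLK1, the mitotic kinase (ENSG00000166851, chromosome 16, 23677656 to 23690367), had 178, 166 and 167 CPM in HN6, against 24.8, 28.1 and 26.9 CPM in HN4. AURKA, a centrosome kinase, averaged 330.2 ± 3.92 CPM in HN6 and 70.5 ± 4.77 CPM in HN4, TOP2A, which untangles replicated DNA, 1179.7 ± 99.9 CPM in HN6 and 319 ± 6.61 CPM in HN4, and the proliferation marker MKI67 1019.8 ± 78.7 CPM in HN6 and 388 ± 5.91 CPM in HN4. The other pairs of groups gave other counts, and the difference between pairs was not tested. Between HN6 vector and HN4 labelled ACLY, 16 of the 30 were at least 2-fold higher, with a median of 1.07. At any size 28 were called higher there and 1 lower, against 35.8% and 37.9% of all genes tested in that pair, of which 73.8% were called. Between HN6 vector and HN4 labelled vector 4 were at least 2-fold higher, with a median of 0.33. At any size 19 were called higher and 4 lower, against 34.7% and 35.5% of all genes, of which 70.2% were called. Between the lines given IL-8 0 of 30 were at least 2-fold higher, with a median of -0.03. At any size 13 were called higher and 12 lower, against 39.0% and 40.2% of all genes, of which 79.2% were called; there PLK1 differed by 0.87, AURKA by 0.27 and MKI67 by -0.15.

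Of 23 regulators of G1, CCND1 included, 2 were at least 2-fold higher and 5 at least 2-fold lower; CDKN2C, the inhibitor p18, was 2.55-fold higher and MYC 1.68-fold higher in HN6. CDKN1A, the inhibitor p21, had 157, 133 and 153 CPM in HN6, against 392, 399 and 419 CPM in HN4, and every HN6 library was below every HN4 library.

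In metabolism, 14 of 36 NRF2 targets and xenobiotic enzymes were at least 2-fold higher in HN6 and 6 at least 2-fold lower, with a median of 0.51 that turned to -0.038 when genes under a mean of 5 CPM were left out. CYP1B1 averaged 41.1 ± 1.14 CPM in HN6 and 8.64 ± 0.751 CPM in HN4 but CYP1A1, its relative among dioxin-induced oxidases, 1.18 ± 0.19 CPM in HN6 and 23.1 ± 0.423 CPM in HN4. ALDH1A3, which makes retinoic acid, had 168, 153 and 167 CPM in HN6, against 808, 758 and 778 CPM in HN4. Of 40 genes of ACLY, fatty acids and lipid droplets 3 were at least 2-fold higher and 9 at least 2-fold lower, PLIN2 foremost; DGAT2, which completes triglyceride, averaged 4.69 ± 0.47 CPM in HN6 and 24.2 ± 1.96 CPM in HN4. Of 25 cholesterol genes 2 were higher and 5 lower by at least 2-fold, and ABCA1, which exports cholesterol, averaged 1.15 ± 0.177 CPM in HN6 and 24.3 ± 1.89 CPM in HN4.

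Glycolysis and hypoxia genes were at least 2-fold lower in HN6 for 8 of 35 tested and higher for 2; at any size 22 were called lower and 10 higher, with a median of -0.36. Between HN6 vector and HN4 labelled ACLY 3 were at least 2-fold higher and 8 lower, with a median of -0.26, and between HN6 vector and HN4 labelled vector 5 were higher and 6 lower, with a median of -0.05. Between the lines given IL-8 the median was 0.19, with 6 higher and 4 lower of 36 tested. NDRG1, a hypoxia-induced stress protein, had 22.9, 18.8 and 21.7 CPM in HN6, against 440.0, 435 and 437 CPM in HN4. The enolase ENO2 averaged 7.74 ± 1.08 CPM in HN6 and 108 ± 1.31 CPM in HN4, VEGFA, the vessel growth factor, 149 ± 4.89 CPM in HN6 and 512 ± 7.44 CPM in HN4, and CA9, a surface carbonic anhydrase, 10.4 ± 1.74 CPM in HN6 and 34.8 ± 1.78 CPM in HN4. CA9 differed by -1.74 between the untreated lines, by 1.17 between HN6 vector and HN4 labelled vector, and by 0.70 between the lines given IL-8. The lactate carrier SLC16A1 was higher, at 382 ± 14.3 CPM in HN6 and 56.8 ± 0.641 CPM in HN4. NDRG1 differed by -4.37 between the untreated lines, by -3.96 and -1.99 between HN6 vector and HN4 labelled ACLY and labelled vector, and by -0.66 between the lines given IL-8. Genes of small extracellular vesicle formation were called higher in HN6 for 10 of 32 tested and lower for 17, but by at least 2-fold for 3 and 2. The adaptor SDCBP, syntenin, averaged 215 ± 12.7 CPM in HN6 and 572 ± 10.8 CPM in HN4, and its partner SDC1 797 ± 85.3 CPM in HN6 and 319.8 ± 16.4 CPM in HN4.

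The differences were also followed along the chromosomes. Over the tested protein-coding genes of each autosome, the median difference was lowest on chromosome 7, at -0.73 over 633 genes with 37.0% at least 2-fold lower in HN6, and highest on chromosome 14, at 0.54 over 434 genes. EGFR and SEC61G thus stood on the chromosome with the lowest median. In windows of 25 consecutive genes, 12111 in all, the median had its 1st percentile at -1.12 and its 99th at 1.46. The highest window lay on chromosome 6 from 24667035 to 26285638, with a median of 2.36, and held the replication histone genes: HIST1H4H averaged 42.2 ± 0.828 CPM in HN6 and 2.6 ± 0.421 CPM in HN4 and HIST1H2BC 29.6 ± 3.45 CPM in HN6 and 2.1 ± 0.431 CPM in HN4. Most such messages lack a poly-A tail and the genes are near copies, so their counts from poly-A selected RNA are uncertain. The second lay on chromosome 10 from 43436841 to 49539538, with a median of 2.02, and held ALOX5, the first enzyme of leukotriene synthesis, at 12.1 ± 1.52 CPM in HN6 and 0.0167 ± 0.029 CPM in HN4; its AGAP and ANXA8 genes have near copies and are uncertain. The third, on chromosome 1 from 115048011 to 143971965, had all 25 genes above 0 and a median of 2.01. In it the adhesion gene IGSF3 averaged 181 ± 3.76 CPM in HN6 and 25 ± 2.26 CPM in HN4. This window spanned 28.9 megabases, and its FAM72B, FAM72C, SRGAP2C and NBPF26 genes have near copies and are uncertain.

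The lowest window lay on chromosome 5 from 140639427 to 141651419, with a median of -1.83, over the protocadherin beta and gamma clusters, whose genes share exons or sequence. PCDHB10 had 1 read in HN6 and 70 in HN4. Except for PCDHGC3, the protocadherins of the window averaged 3.1 CPM or less in HN4, so its median rests largely on weakly read genes. The better-read genes were mixed. DIAPH1 averaged 309 CPM in HN6 and 297 CPM in HN4, and PCDHGC3 40.4 and 42.3 CPM. HARS averaged 56.4 and 83.4 CPM, and FCHSD1 0.936 and 16.5 CPM. At the tip of the short arm of chromosome 7, from 192969 to 2448483, all 25 genes were below 0, with a median of -1.63. There FAM20C, a kinase of secreted proteins, had 74, 64.4 and 68.2 CPM in HN6, against 741, 806 and 834 CPM in HN4, and ADAP1 averaged 14.1 ± 1.35 CPM in HN6 and 132 ± 15.3 CPM in HN4. The last was the end of chromosome 11 from 126355640 to 134378341, with a median of -1.39, which holds GLB1L2 and ST14. The leading regions followed the size of the window: over 50 genes the highest lay on chromosome 1, the chromosome 6 and 10 regions came next, and the 3 lowest were all on chromosome 7, the lowest from 36854361 to 51316818. In the other pairs of HN6 and HN4 groups the chromosome 6, 10, 1, 7 and 11 windows kept medians of 1.59 to 2.43 where higher and -1.70 to -1.10 where lower, and the protocadherin window had -0.64 for HN4 labelled vector, -1.19 for HN4 labelled ACLY and -0.52 under IL-8.

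**Figure D4:**
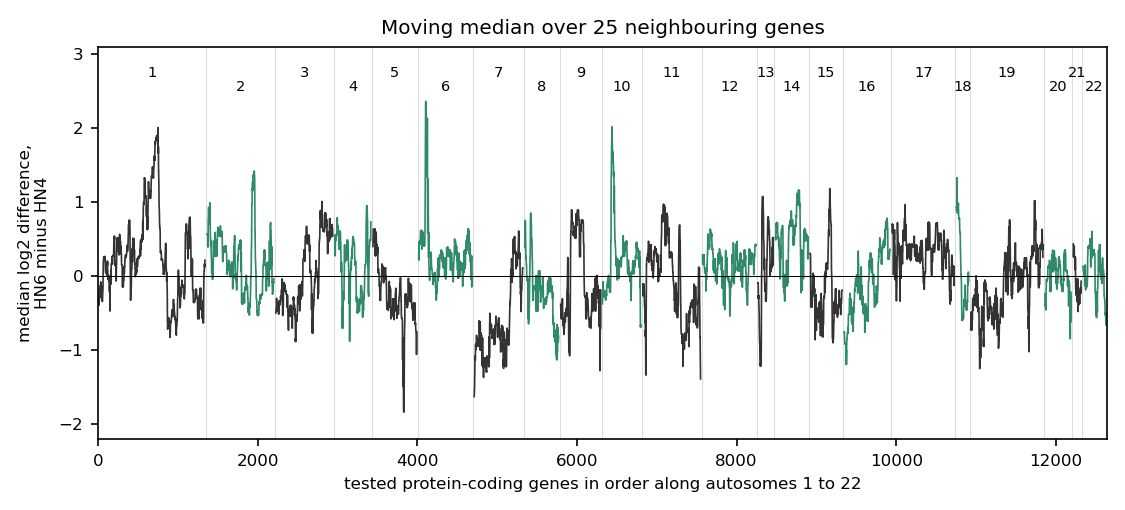
The moving median of the log2 difference, HN6 minus HN4, over 25 neighbouring tested protein-coding genes, with the genes in order along autosomes 1 to 22, which alternate in colour. Chromosome 7 lies mostly below 0, and the peaks on chromosomes 1, 6 and 10 reach medians of 2.01, 2.36 and 2.02.

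The line difference was also measured in libraries that the untreated comparison did not use. Between HN6 vector and HN4 labelled ACLY 5565 genes differed by at least 2-fold (34.5%), 2397 higher (14.9%) and 3168 lower (19.7%). Between HN6 vector and HN4 labelled vector 4819 did (29.9%), 2264 higher (14.0%) and 2555 lower (15.9%), and between the lines given IL-8 4652 did (29.8%), 2379 higher (15.3%) and 2273 lower (14.6%). The ACLY level of the 2 HN4 plasmid groups goes against their labels, so both are given and named by label, and 1 library of HN4 labelled ACLY had 2.15% of its counts in mitochondrial genes, against 5.71% and 6.03% in the other two. The pairs with HN4 labelled ACLY and labelled vector share the HN6 vector libraries.

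Of the genes at least 2-fold higher in untreated HN6 and tested in both, 1943 of 2177 were so against HN4 labelled ACLY, which is 89.2% of the untreated calls and 84.8% of the calls in the other pair. Of those lower, 2665 of 3057 were (87.2% and 89.9%). With HN4 labelled vector the higher genes shared were 1616 (74.2% and 74.8%) and the lower ones 2148 (70.3% and 89.8%), and under IL-8 1512 of 2165 (69.8% and 70.3%) and 1890 of 2851 (66.3% and 85.1%). Calls in opposite directions were 0 against HN4 labelled ACLY, 2 and 7 against HN4 labelled vector, and 1 and 13 under IL-8. Across 15508 genes the differences had a Pearson r of 0.971 with those against HN4 labelled ACLY and 0.944 with those against HN4 labelled vector. Across 15181 genes it was 0.929 with those under IL-8. By rank (Spearman) the correlations were lower, at 0.959, 0.891 and 0.836 in the same order. Genes are not independent, and no p is given. EGFR differed by 3.12, 3.62 and 3.22 in these pairs, against 3.13 in the untreated lines, CCND1 by 3.23, 2.71 and 2.64, against 3.29, and CDKN2A by -6.25, -5.91 and -5.76, against -6.87. Besides the mitosis and the glycolysis lists, the median of some lists changed sign between pairs: that of the Notch list was -0.32 between the untreated lines and 0.29 between the lines given IL-8, and that of the cornification list was 0.32 between the untreated lines and -0.14 between HN6 vector and HN4 labelled vector. The medians of the G1, TGF-beta, collagen and integrin lists also changed sign in at least 1 pair, and these differences between pairs were not tested. Of the 58 genes restricted to HN6, all 58 had over 3 reads in every library of HN6 vector and of HN6 with IL-8. At most 3 reads in every library were seen for 46 of them in HN4 labelled vector, 47 in HN4 labelled ACLY and 51 in HN4 with IL-8. All 55 genes restricted to HN4 had over 3 reads in every library of its plasmid and IL-8 groups, while 49 stayed at 3 reads or fewer in HN6 vector, 41 in HN6 with the ACLY plasmid and 44 in HN6 with IL-8.

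**Figure D5:**
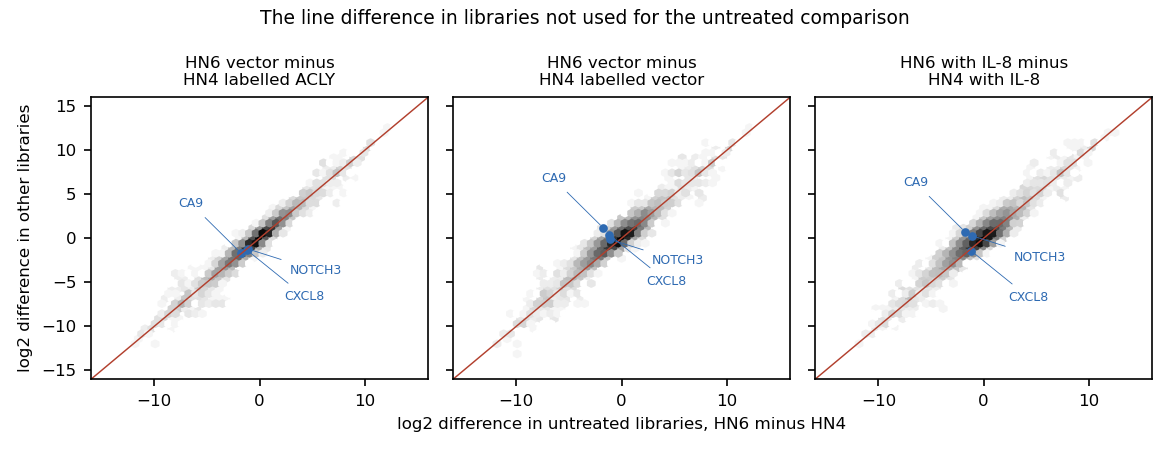
The shade of each cell counts autosomal genes by their log2 difference, HN6 minus HN4, in the untreated libraries (horizontal axis) and in 3 other pairs of groups (vertical axis); the red line marks equal values. Most genes lie along the line, and CA9, CXCL8 and NOTCH3 are marked as named genes whose libraries lay apart in opposite directions in at least 1 pair, CA9 at -1.74 untreated and 1.17 against HN4 labelled vector.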

How the data were processed

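Poly-A selected RNA was sequenced; the authors deposited 1 table of counts per gene for 36 libraries with each gene's length in bases, per the file headers. CASAVA, HISAT2 2.0.5, featureCounts 1.5.0-p3, DESeq2 and build hg38 are named in the submitters' processing notes. Strand setting, annotation release and treatment of reads with several matches are not given in the sources used here. Near-identical copies and antisense partners are therefore uncertain. All 58735 gene IDs matched GENCODE release 29, which gave names, biotypes and coordinates on hg38.

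The 6 untreated libraries, of 16855576 to 19197976 counts, entered one edgeR model (edgeR 4.0.16 under R 4.3.3, with limma 3.58.1). It used a low-count filter set at 10 reads per library and 15 in total, TMM scaling, the quasi-likelihood test with 4 residual degrees of freedom, and Benjamini-Hochberg adjustment over 16305 genes at 0.05. With the same settings, the 6 libraries of the lines given IL-8 had a model of their own. The 9 libraries of HN6 vector, HN4 labelled vector and HN4 labelled ACLY entered a joint model, from which both of their comparisons came. The method was tested on simulated data with a common spread for all genes and far fewer changed genes than were called here. That test does not show how the method does when most genes differ. A fold against 0 reads is a bound from 3 counts over the 3 libraries of a group together, and ratios on 1 to 3 reads have a 95% counting interval. Intervals and floors cover counting error only. Exact permutation of 3 against 3 libraries cannot go below a p of 0.1, so no such test is given.

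The text names CXCR1, CXCR2, CXCL8 and ACLY, the 12 highest and 12 lowest differences among called protein-coding genes without overlap at 50 CPM or more in the higher line, up to 6 called members of each list at 5 CPM or more, 10 restricted genes of each line by counts per kb, and up to 6 genes of each window. Others (KRT14, FAP, CDH1, TGFA, CLDN1, TJP1, MYC, MYEOV, TPCN2, NADSYN1, LANCL2, VOPP1, IFNE, TUSC1 and ELAVL2 among them) were chosen after their values were seen. The comparison, the lists and the tests were chosen with earlier results of these data known. Replicates differed by more than sampling noise, with a chi-square per gene of 2.67 to 7.83. Alternatives were DESeq2 1.42.0, 2 other scalings, 2 filters, other sets of libraries, a replicate block and each library left out. Figures and summaries used Python 3.11.15, pandas 2.3.3, scipy 1.17.1 and matplotlib 3.10.9. One gene list and some single genes are not reported here.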

Additional observations from a re-analysis of the deposited data

Results flagged for a closer look

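These results were sought only among the genes that the naming rule picks. In each, every HN6 library lay on one side of every HN4 library in the untreated pair. In another pair of groups they lay on the opposite side, and the difference between pairs was not tested. CDKN2B, given above, is not in this set but also changed sign. It differed by -0.69 between the untreated lines, 0.74 between HN6 vector and HN4 labelled vector, and 0.86 between the lines given IL-8. CA9 differed by -1.74 on the log2 scale between the untreated lines, by 1.17 between HN6 vector and HN4 labelled vector, and by 0.70 between the lines given IL-8. CXCL8 differed by -1.20 between the untreated lines and by 0.42 between HN6 vector and HN4 labelled vector. NOTCH3 differed by -1.13 between the untreated lines and by 0.29 between the lines given IL-8.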

How the results depend on the processing

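For the 210 genes that the rule names and that passed the test, all 3330 values counted kept their direction and stayed past the threshold. A test against a 2-fold limit was not among the alternatives counted. Most of these genes were named for large called differences in the same data, so they were likely to hold. With a mean of at least 5 CPM, 1162 genes were higher and 1592 lower by at least 2-fold, against 2243 and 3128. Genes restricted to HN6 numbered 33 with at most 1 read, 90 with at least 2 CPM and 37 with at least 10 CPM; those restricted to HN4 numbered 102 with at most 10 reads, 103 with at least 2 CPM and 33 with at least 10 CPM. The highest window median was 2.85 over 15 genes and 1.85 over 50, and the lowest -2.83 and -1.29. Over 50 genes the highest was on chromosome 1 and the 3 lowest on chromosome 7, outside the chromosome 5 and 11 windows. Of 432 list medians 369 moved by less than the spread, 55 moved by at least the spread and kept their sign, and 8 changed sign by at least the spread. Any change of sign smaller than the spread is counted among the 369. The median of the G1 regulators turned to -0.076 with library size alone, -0.023 with upper-quartile factors, -0.014 with a mean of at least 5 CPM and with protein-coding genes alone, -0.017 and -0.022 without HN6 replicates 1 and 2, and -0.011 without HN4 replicate 3; without 1 library it lay between -0.022 and 0.033. That of the NRF2 list turned to -0.038 with a mean of at least 5 CPM. The cause was not tested. Leaving out 1 library gave 5958 to 6123 genes higher, 6199 to 6581 lower, 2354 to 2463 higher by at least 2-fold and 3190 to 3377 lower by at least 2-fold. Same-numbered replicates did not deviate together in every pair (correlations -0.158, 0.240 and 0.0948), and differently numbered ones ranged from -0.308 to 0.327. With so few libraries these values cannot tell whether the numbers pair the libraries. With the replicate block 5999 genes were higher and 6414 lower, 2246 and 3127 by at least 2-fold. With library size alone the median of all genes was -0.12, and 43.8% of calls were higher, against 48.4%. Genes at a few reads are limited by depth.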
